A study of Mus musculus with 2 samples.

Results

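Genes of the splicing machinery were compared between bone marrow KLS cells of wild type and of TIF1γ Δ/Δ mice, which carry a conditional inactivation of the TIF1γ gene (Trim33). The genes were the 47 spliceosome, SR protein and hnRNP genes of a list built by function, and an array probe set was taken for a gene when the platform annotation assigned it to that gene alone. Of the 47 genes, 42 had such a probe set, out of 18193 genes on the array. Snrpa, Snrpd1 and Snrpd2 were represented only by probe sets shared with other genes, and Zrsr2 and Srsf7 were not analysed here. KLS cells are the lineage-negative, c-kit-positive, Sca-positive stem and progenitor fraction of mouse bone marrow, here purified by cell sorting. The 2 groups were wild type (1 array) and TIF1γ Δ/Δ (1 array). The sources used here do not state the age, strain or number of the mice, or the driver of the inactivation. With 1 array a group there was no replicate check of any difference, and no test between the genotypes was possible.

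Introns are removed by the spliceosome, which assembles from small nuclear ribonucleoproteins (snRNPs) on each new transcript. The U1 snRNP recognises the start of the intron, SF1 and the U2AF proteins recognise its end, the SF3a and SF3b proteins anchor the U2 snRNP at the branch point, and the tri-snRNP then brings in the catalytic core. SR proteins mostly promote the use of splice sites, and hnRNP proteins often oppose it. SF3B1, SRSF2, U2AF1 and ZRSR2 are recurrently mutated in human myelodysplastic syndromes and related myeloid neoplasms.

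Each value is a MAS5 intensity, the linear brightness of a probe set after each array had been scaled to the same trimmed mean. A gene was represented by its brightest probe set. A difference is the log2 intensity on the TIF1γ Δ/Δ array minus that on the wild type array, centred on the median of measured probe sets. A probe set counted as measured at or above the median signal of its array, which was 14.4 for wild type and 11.7 for TIF1γ Δ/Δ and is called the floor here. All 42 genes were measured on both arrays. The only estimate of error was the scatter between probe sets of 1 gene, with an SD of 0.452 (log2) among 4534 genes, which measures how far probe sets disagree and not how far mice differ. A difference of 1.5-fold, or 0.585 on the log2 scale, is only a little larger than that SD. Passing it does not set a gene apart from disagreement between probe sets.

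The targeted gene Trim33 had an intensity of 379 in wild type and 172 in TIF1γ Δ/Δ cells (log2 -1.12). The sources used here do not state whether the deletion covers that probe set, so it is a limited check of the labels. All 8 analysed stem and progenitor markers (Kit, Cd34, Flt3, Meis1, Gata2, Myb, Hoxa9 and Slamf1) were measured on both arrays, with a summed intensity of 6876 in wild type and 9470 in TIF1γ Δ/Δ cells; Ly6a, which encodes Sca, was not analysed here. Markers of neutrophils and macrophages summed to 38183 in wild type and 715 in TIF1γ Δ/Δ cells, with 14 and 6 of 15 measured. Erythroid markers summed to 4550 and 2699 (7 and 5 of 8 measured), B cell markers to 692 and 208 (4 and 3 of 7), T and NK cell markers to 383 and 116 (6 and 2 of 8), and megakaryocyte markers to 1812 and 2873 (7 of 7 on each array). Most of the erythroid sums came from Car2, at 2879 and 2016, and the median difference of the measured erythroid markers was -1.71. Fewer cells of a type and less RNA per cell cannot be told apart in these bulk samples. The lower signal of these mature cell markers, except the megakaryocyte markers, which were higher, accompanied every difference described here. The part of these marker changes in the differences was not tested.

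Splicing factor genes were mostly higher on the TIF1γ Δ/Δ array, by small amounts. Of the 42 genes, 34 had a difference above 0, against 50.0% of the 11724 genes measured on at least 1 array. The median difference was 0.43 on the log2 scale (quartiles 0.050 and 0.65), against 0.00023 for all measured genes (quartiles -0.37 and 0.37). At 1.5-fold, 13 of the 42 were higher, against 13.5% of all measured genes, and 2 were lower, against 15.3%. With the mean of all probe sets of a gene, 27 of the 42 were above 0 and 7 were at least 1.5-fold higher. The array-wide share past that upper limit was then 10.9%, and the array-wide median was -0.053. By brightest probe set, 3 were at least 2-fold higher (2.53% of all measured genes) and 0 lower (6.01% of all measured genes). The 3 were Hnrnpu, Snrnp70 and Srsf9.

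**Figure D1:**
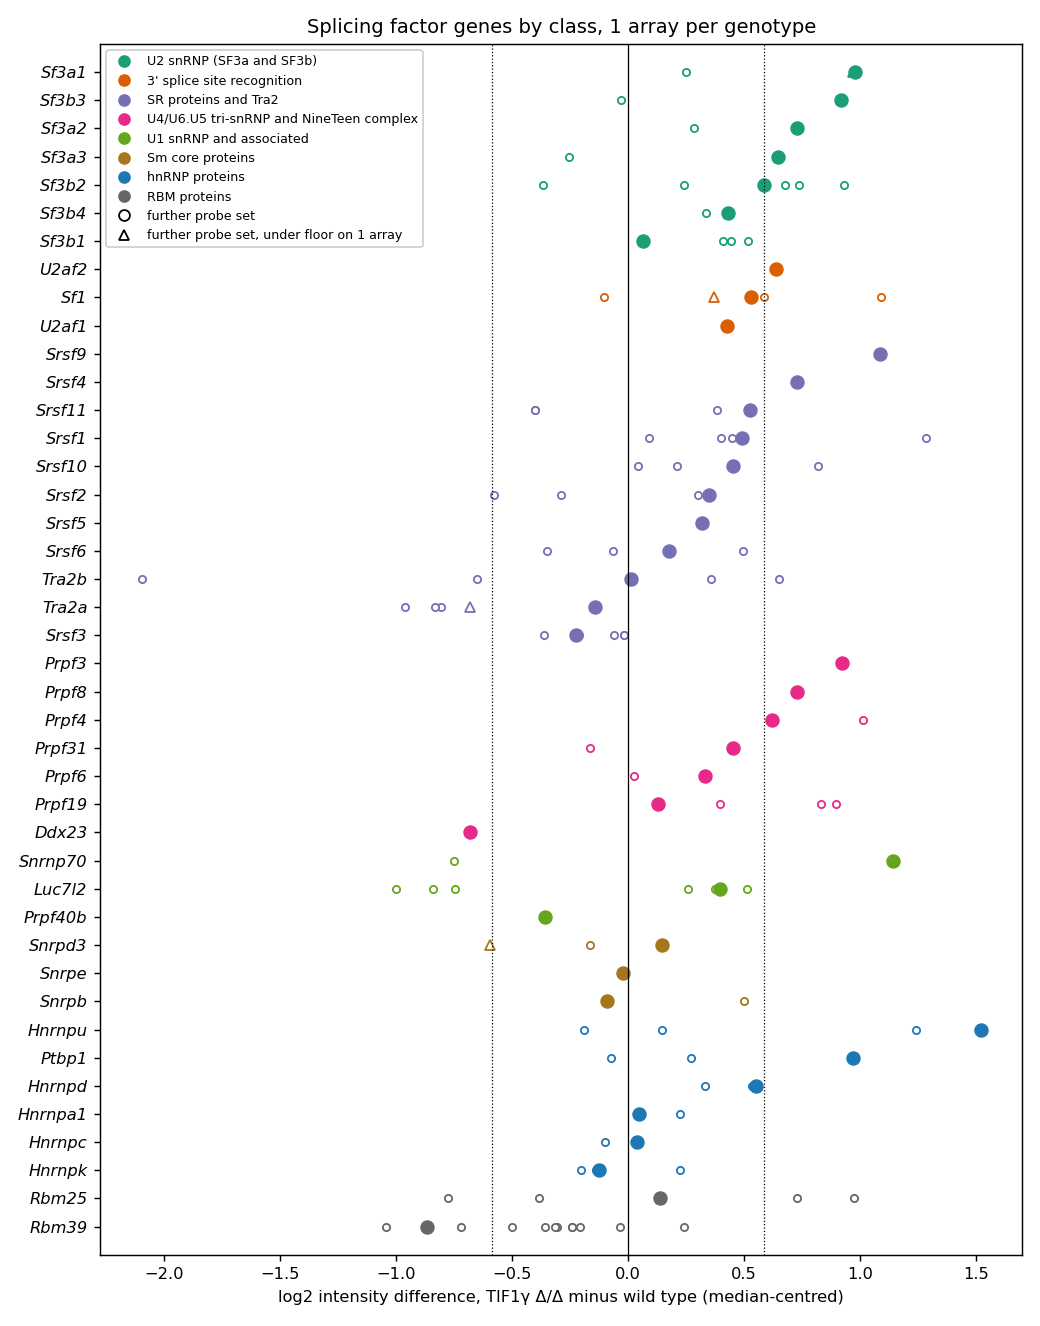
Log2 intensity difference (TIF1γ Δ/Δ minus wild type, x axis) of 42 splicing factor genes, ordered by class. Filled points are the brightest probe set of a gene, open points its further measured probe sets, triangles those under the floor on 1 array; dotted lines mark 1.5-fold. Filled points of 34 genes lie right of 0, while the open points of many genes spread to both sides.

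**Figure D2:**
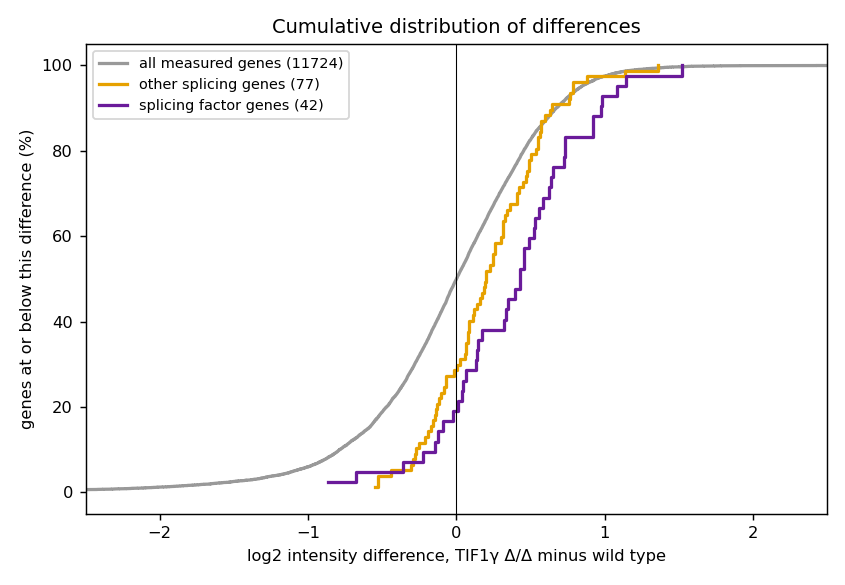
Cumulative share of genes (y axis, percent) at or below a log2 intensity difference (x axis, shown from -2.5 to 2.5) for all 11724 measured genes, 77 other splicing genes and the 42 splicing factor genes. The medians lie at 0.00023, 0.20 and 0.43.

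Sf3b1, Srsf2 and U2af1, the analysed genes among the 4 leading myeloid disease genes, were all under 1.5-fold apart. So were most genes of the array, as 13.5% of all measured genes were at least 1.5-fold higher and 15.3% lower. Sf3b1, the largest subunit of SF3b, gave 1744 in wild type and 1792 in TIF1γ Δ/Δ cells with its brightest probe set (log2 0.063). Its 3 further probe sets gave 1228 and 1644 (log2 0.45), 1054 and 1377 (log2 0.41), and 49.0 and 69.1 (log2 0.52). All 4 were thus higher on the TIF1γ Δ/Δ array, the brightest by the least. U2af1, the small U2AF subunit that reads the last bases of the intron, had 1 probe set with 507 and 670 (log2 0.43). Srsf2, an SR protein, went both ways. Its brightest probe set gave 1452 and 1819 (log2 0.35) and its dimmest 32.7 and 39.6 (log2 0.30), whereas the remaining pair gave 169 and 136 (log2 -0.29) and 72.7 and 47.9 (log2 -0.58). No direction of Srsf2 holds over its probe sets.

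**Figure D3:**
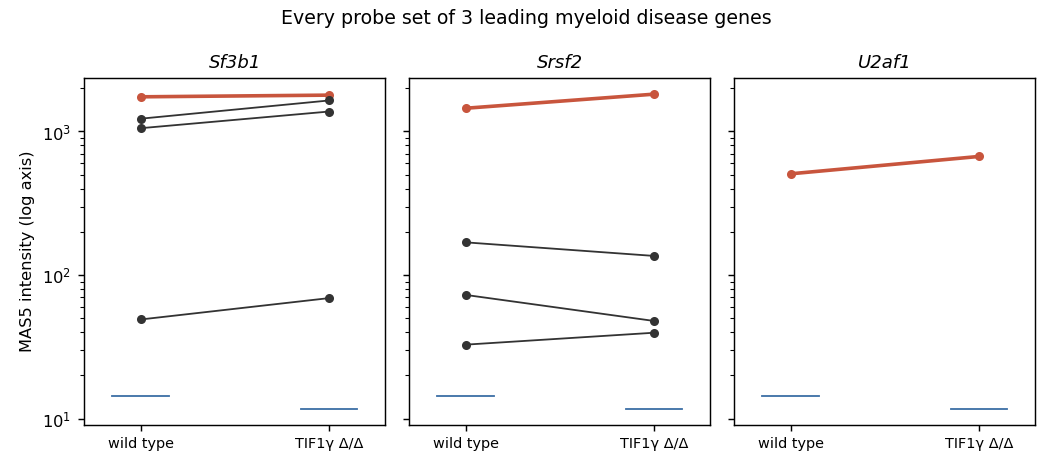
MAS5 intensity (log axis) of every probe set of Sf3b1, Srsf2 and U2af1 on the wild type and the TIF1γ Δ/Δ array, each line joining the 2 values of 1 probe set. The red line is the brightest probe set and the short blue bars are the floors of 14.4 and 11.7. All 4 lines of Sf3b1 and the 1 line of U2af1 slope upwards, and those of Srsf2 diverge.

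Further genes mutated at lower frequency in human myeloid disease were mostly higher too by brightest probe set. Of these 6 genes, 5 were above 0 (50.0% of all measured genes) and 3 at least 1.5-fold higher (13.5%). U2af2, the large U2AF subunit that binds the polypyrimidine tract, gave 286 and 438 (log2 0.64). Prpf8, the central scaffold of the catalytic spliceosome, gave 478 and 780 (log2 0.73). Sf3a1, an SF3a subunit, gave 94.2 and 183 (log2 0.98). These genes were past 1.5-fold, U2af2 and Prpf8 with the 1 probe set that each had. Sf1, which binds the branch point before the U2 snRNP, gave 3022 and 4290 (log2 0.53). Luc7l2, a U1-associated protein, gave 1171 and 1516 (log2 0.40). Only 4 of its 7 measured probe sets were higher, and its mean over all probe sets was -0.10. Prpf40b, also U1-associated, was lower at 16.5 and 12.7 (log2 -0.36), close to the floor on both arrays.

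The promoters of 6 genes are shown, taken from those whose window lies outside or nearly outside the annotated gene. They include genes with a high difference (Snrnp70, Srsf9 and Sf3a1), a low one (Rbm39) and the leading disease genes Sf3b1 and Zrsr2. The window of Hnrnpu, the gene with the highest difference, lies inside its annotated span and is not shown. Each is the 150 bases before a start site in RefSeq (GRCm38.p6), 5′ to 3′ on the strand of the gene. Capitals mark matches on either strand to 6 motifs, and neighbouring matches can run together. For ETS factors the letters searched were CCGGAAG. The CCAAT box was searched as written, and the GC box was searched as GGGCGG. The E-box, which Myc and USF proteins bind, was searched as CACGTG, and for the TATA box the search used TATAAA. The palindrome bound by SMAD proteins was searched as GTCTAGAC. No 2 of these motifs contain each other.
Sf3b1, chr1:55027479-55027628, minus strand: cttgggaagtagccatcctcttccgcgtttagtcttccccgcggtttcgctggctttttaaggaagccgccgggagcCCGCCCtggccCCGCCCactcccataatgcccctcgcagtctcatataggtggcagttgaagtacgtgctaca
Zrsr2, chrX:163958667-163958816, minus strand: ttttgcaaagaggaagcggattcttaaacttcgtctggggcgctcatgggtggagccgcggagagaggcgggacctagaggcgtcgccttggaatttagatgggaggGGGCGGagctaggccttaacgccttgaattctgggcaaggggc
Sf3a1, chr11:4160204-4160353, plus strand: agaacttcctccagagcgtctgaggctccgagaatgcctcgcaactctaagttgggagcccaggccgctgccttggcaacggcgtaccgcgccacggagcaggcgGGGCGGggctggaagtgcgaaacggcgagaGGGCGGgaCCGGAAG
Snrnp70, chr7:45395743-45395892, minus strand: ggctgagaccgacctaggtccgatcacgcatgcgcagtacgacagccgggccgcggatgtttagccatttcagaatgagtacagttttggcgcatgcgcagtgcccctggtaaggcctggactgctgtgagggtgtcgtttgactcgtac
Srsf9, chr5:115327027-115327176, plus strand: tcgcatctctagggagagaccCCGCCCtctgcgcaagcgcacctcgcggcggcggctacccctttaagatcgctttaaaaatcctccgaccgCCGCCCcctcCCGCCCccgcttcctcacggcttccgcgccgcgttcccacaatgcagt
Rbm39, chr2:156180239-156180388, minus strand: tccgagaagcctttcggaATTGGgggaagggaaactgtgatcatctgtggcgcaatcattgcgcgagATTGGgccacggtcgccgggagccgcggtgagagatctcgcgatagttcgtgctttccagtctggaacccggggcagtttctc

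Windows were found for 42 genes of the list, of which 38 were analysed on the arrays and 4 were not. Over the 52 windows of these genes, 25 held a GC box (48.1%, against 28.6% of all 32851 promoter windows) and 19 a CCAAT box (36.5% against 24.5%). The ETS motif was found in 10 windows (19.2% against 5.52%) and the E-box in 5 (9.62% against 4.30%). The TATA box was found in 4 windows (7.69% against 7.57%), and the SMAD palindrome in 0 (0.073% of all windows). Some windows of the same gene overlap and hold the same match, as those of Sf3b2 do with the ETS motif. Counted by gene, 21 of the 42 held a GC box, 17 a CCAAT box and 8 an ETS motif. The E-box and the TATA box were each held by 4 genes. Of the sequences printed above, those of Sf3b1, Zrsr2, Sf3a1 and Srsf9 held a GC box, that of Sf3a1 an ETS motif, that of Snrnp70 no match, and that of Rbm39, with a lower signal, 2 CCAAT boxes. A match describes the letters of a window and is no evidence of binding.

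By their brightest probe sets, the 7 SF3a and SF3b genes that form the U2 snRNP class had the highest class median, and all 7 were above 0. Their median difference was 0.65, and 4 of 7 were past 1.5-fold (13.5% of all measured genes). Averaged over all probe sets of each gene it was 0.44, where it lay below those of the U2AF and Sf1 genes (0.64) and of the tri-snRNP class (0.52). Sf3b3, the large scaffold protein of SF3b, gave 314 in wild type and 585 in TIF1γ Δ/Δ cells (log2 0.92), but its second probe set gave 121 and 117 (log2 -0.030). Sf3a2, which contacts the branch region, gave 1008 and 1642 (log2 0.73), and its second probe set 23.8 and 28.5 (log2 0.28). Sf3a3 gave 395 and 610 (log2 0.65), whereas its second probe set was lower at 190 and 156 (log2 -0.25). Sf3a1, given above, was higher with its second probe set too, at 108 and 126 (log2 0.25), and another, at 11.9 and 27.8, reached the floor in TIF1γ Δ/Δ cells only. Sf3a1 and Sf3a2 were therefore the members past 1.5-fold whose measured probe sets all pointed the same way, and Sf3a3 and Sf3b3 were not. Sf3b2 lay just inside the limit at 1476 and 2177 (log2 0.58), with 5 of 6 probe sets higher. Sf3b4, an RNA-binding subunit of SF3b, gave 429 and 568 (log2 0.43, 2 of 2 probe sets). Of the small SF3b subunits outside this class, Sf3b5 and Sf3b6 were lower and Phf5a was slightly higher, as given below.

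Genes for proteins that mark the end of the intron had similar differences. U2af1 (log2 0.43), Sf1 (log2 0.53) and U2af2 (log2 0.64) lay closer to each other than the scatter between probe sets. Of the 5 measured probe sets of Sf1, 4 were higher, and the fifth gave 130 and 119 (log2 -0.10).

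The tri-snRNP genes and Prpf19 were higher except for 1 helicase. The class median was 0.45, with 3 of 7 genes past 1.5-fold higher (13.5% of all measured genes) and 1 lower (15.3%). Prpf3, a U4/U6 protein, gave 177 and 330 (log2 0.92), and its partner Prpf4 gave 61.7 and 93.5 (log2 0.62) and, with a second probe set, 24.4 and 48.4 (log2 1.01). Together with Prpf8 these make up the 3 genes past 1.5-fold, and Prpf3 and Prpf8 had 1 probe set each. Ddx23, the helicase that helps to integrate the U4/U6 and U5 particles, was lower at 58.0 and 35.6 (log2 -0.68), and its second probe set lay under the floor on both arrays. Prpf31, a U4 snRNP protein, gave a log2 difference of 0.45 (1 of 2 probe sets in that direction) and Prpf6, a U5 protein that bridges the tri-snRNP, of 0.33 (2 of 2). Prpf19, a ubiquitin ligase that helps to activate the spliceosome, gave 3928 and 4228 (log2 0.13), while its dimmer probe sets reached log2 0.90, all 4 being above 0.

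In the U1 snRNP, the values of the core protein Snrnp70 rested on 1 of its probe sets. Snrnp70, which binds the U1 RNA, gave 113 and 245 (log2 1.14) with its brightest probe set and 60.5 and 35.4 (log2 -0.75) with the other measured probe set. The pair differed by 1.89 on the log2 scale, and their median was 0.19. The median range within all genes with several such probe sets was 0.48. Over the 3 analysed U1 genes the median was 0.40, and it was 0.19 with the median and -0.11 with the mean of a gene's probe sets, the last being set by the floor for Snrnp70, so no direction of the class holds over these choices.

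Sm proteins, which form the ring around the snRNAs, had a median of -0.021. Snrpe gave 6730 in wild type and 6524 in TIF1γ Δ/Δ cells (log2 -0.021), Snrpb gave 3148 and 2910 (log2 -0.090) and Snrpd3 gave 1162 and 1263 (log2 0.14). None of these brightest probe sets was past the scatter in either direction. The second probe set of Snrpb was, at 780 and 1085 (log2 0.50), and those of Snrpd3 were lower, at 143 and 125 (log2 -0.17) and, under the floor in TIF1γ Δ/Δ cells, at 17.9 and 6.41.

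SR proteins spread from -0.22 to 1.08 around a median of 0.35, and 9 of 11 were above 0 (50.0% of all measured genes). With the mean of all probe sets the median was only 0.063. Srsf9, whose product acts in alternative splice site choice, gave 172 and 359 (log2 1.08), and Srsf4 gave 382 and 623 (log2 0.73), each with 1 probe set. These were the 2 of 11 past 1.5-fold higher, against 13.5% of all measured genes. Srsf1, the founding SR protein, gave 3535 and 4886 (log2 0.49), with all 6 measured probe sets higher, by 0.092 to 1.28. Srsf10, an SR protein that represses splicing when dephosphorylated, was higher with 4 of 4 probe sets (log2 0.45 for the brightest), while Srsf11 (log2 0.53) and Srsf6 (log2 0.18) had 2 of 4 in each direction. Srsf5 had 1 probe set, at log2 0.32.

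Srsf3 and Tra2a were the SR class members with no higher probe set. Srsf3 gave 4043 and 3406 (log2 -0.22), and all 6 probe sets lay between -0.36 and -0.016. Tra2a, an SR-related enhancer-binding protein, gave 1658 and 1476 (log2 -0.14) with its brightest probe set, and the further ones lay lower, down to log2 -0.96 for 1 that gave 93.5 and 47.2. For its close relative Tra2b the brightest probe set did not separate the arrays, at 3272 and 3246 (log2 0.012). Another Tra2b probe set gave 211 and 48.5 (log2 -2.10), the lowest difference among all 133 measured probe sets of these genes.

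Among hnRNP genes, Hnrnpu stood at the top of the whole list by brightest probe set, but at only 0.50 with the mean of all its probe sets. Hnrnpu, a nuclear scaffold protein that binds RNA and chromatin, gave 1199 in wild type and 3379 in TIF1γ Δ/Δ cells (log2 1.52). A second probe set gave 700 and 1626 (log2 1.24), but the other measured ones did not follow, at 200 and 173 (log2 -0.19) and 84.7 and 92.3 (log2 0.15). The mean also took in a probe set under both floors, at 11.5 and 9.54. Ptbp1, a repressor of exon inclusion, gave 179 and 345 (log2 0.97), with its further probe sets at 130 and 121 (log2 -0.074) and 33.5 and 39.8 (log2 0.27). Hnrnpd, which also binds AU-rich elements of mRNAs, gave 1098 and 1585 (log2 0.55), and all 3 probe sets were higher by at least 0.33. Hnrnpa1, which binds splicing silencers (log2 0.046), Hnrnpc, which binds uridine tracts (log2 0.040), and Hnrnpk, which binds C-rich RNA (log2 -0.13), lay within the scatter between probe sets.

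Rbm39, a U2AF-related coactivator, had the lowest difference by brightest probe set. Its brightest probe set gave 1102 and 594 (log2 -0.87), and 11 of its 12 probe sets were lower, down to 224 and 107 (log2 -1.04). The exception gave 594 and 691 (log2 0.24). Over all its probe sets the mean was -0.38, less far from 0 than that of Tra2a (-0.79) or Ddx23 (-0.50). Of the further lower probe sets, 1 gave 85.1 and 50.8 (log2 -0.72), 1 gave 140 and 97.3 (log2 -0.50), and 7 lay between -0.36 and -0.034. Rbm25, which binds exonic enhancers, had no common direction, with 166 and 179 (log2 0.14) for the brightest of 5 measured probe sets and a range from -0.78 to 0.97.

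**Figure D4:**
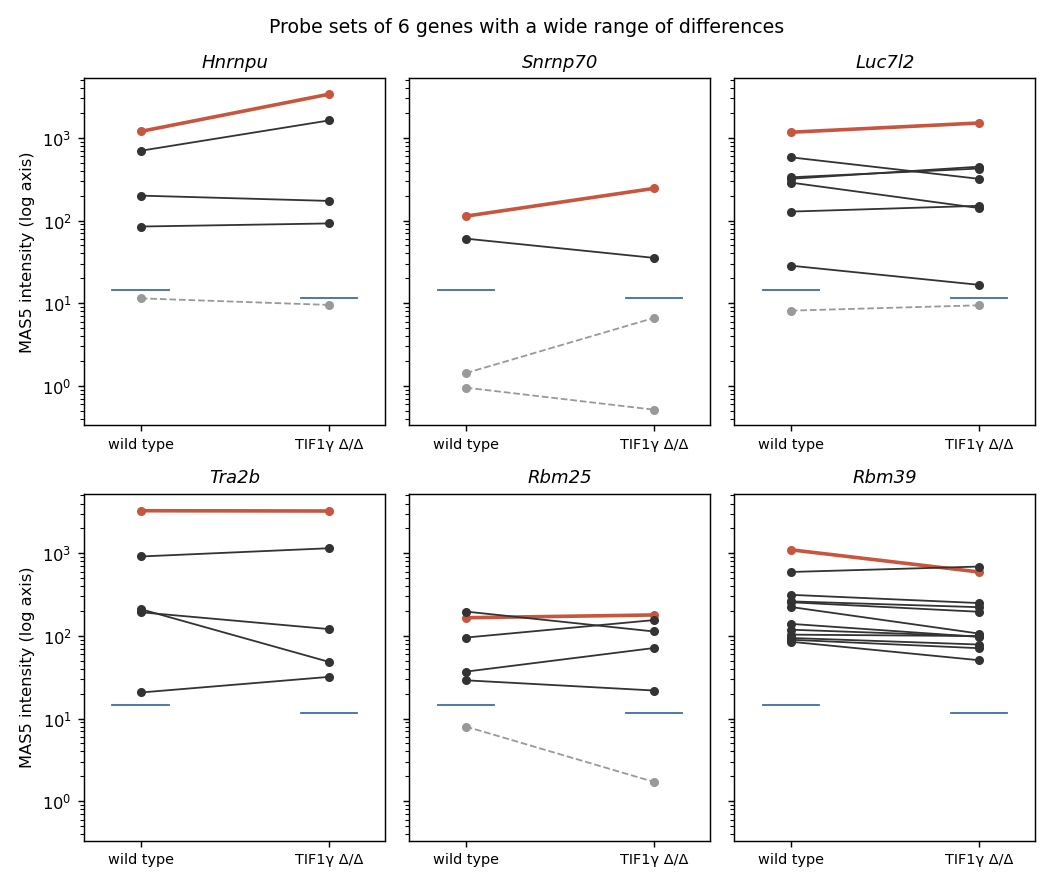
MAS5 intensity (log axis) of every probe set of Hnrnpu, Snrnp70, Luc7l2, Tra2b, Rbm25 and Rbm39 on the wild type and the TIF1γ Δ/Δ array, each line joining the 2 values of 1 probe set. Red marks the probe set used for the gene, dashed grey those under both floors (short blue bars). Lines of the first 5 genes cross or diverge, whereas 11 of the 12 lines of Rbm39 slope downwards.

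Probe sets of 1 gene disagreed often. Of the 32 genes with several probe sets measured on both arrays, 19 had differences on both sides of 0, against 44.2% of the 4534 such genes on the array. The median range within a gene was 0.80 on the log2 scale, against 0.48 for all such genes. Both measures can grow with the number of probe sets, and the 32 genes had 119, against 11900 for the 4534. In the 32 genes the brightest probe sets had a median of 0.41, but the 87 further probe sets had a median of 0.025, with 44 above 0. Over all 4534 such genes these medians were 0.12 and 0.019, with 3783 of 7366 further probe sets above 0. The further probe sets of the 32 genes were thus near the array as a whole. Of the 87, 13 were at least 1.5-fold higher (14.7% of the further probe sets of all genes) and 12 at least 1.5-fold lower (14.4%). The brightest probe set was above the median of the others in 22 of the 32 genes, or 68.8%, against 57.7% of all such genes. The further probe sets, unlike the brightest, showed no common direction. The ratio of 3′ to 5′ signal, which grows as transcripts are copied less fully from their end, was 7.86 in wild type and 7.38 in TIF1γ Δ/Δ cells for Gapdh and 5.14 and 5.54 for actin, and its part in these disagreements was not tested. With the median over each gene's probe sets, an alternative chosen after seeing the data, the median of the 42 genes was 0.26. In Luc7l2, 4 probe sets were higher, by 0.26 to 0.51, and 3 lower, at 583 and 320 (log2 -0.84), 288 and 142 and 28.5 and 16.7 (log2 -0.75). In which transcript or intron these probe sets lie was not analysed here.

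Differences also varied with signal. Genes measured on both arrays were divided into 4 equal bins by mean signal, and 30 of the 42 splicing factor genes fell into the brightest bin and 8 into the next. In the brightest bin 24 of 30 were above 0 (54.1% of all genes there) and 6 were at least 1.5-fold higher (12.0% of all genes there). In the next bin all 8 were above 0 (61.6%) and 5 at least 1.5-fold higher (19.2%). The 2 genes in the dimmest bin, Ddx23 and Prpf40b, were both lower, as were most genes there (median -0.15). Across the 42 genes, difference and mean log2 signal gave a Pearson r of -0.14 and a Spearman rho of -0.37. Difference and the logarithm of gene length on the genome gave a Pearson r of -0.019. Across all 10365 genes measured on both arrays the r with signal was 0.12. Genes share the 2 arrays and are not independent replicates.

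**Figure D5:**
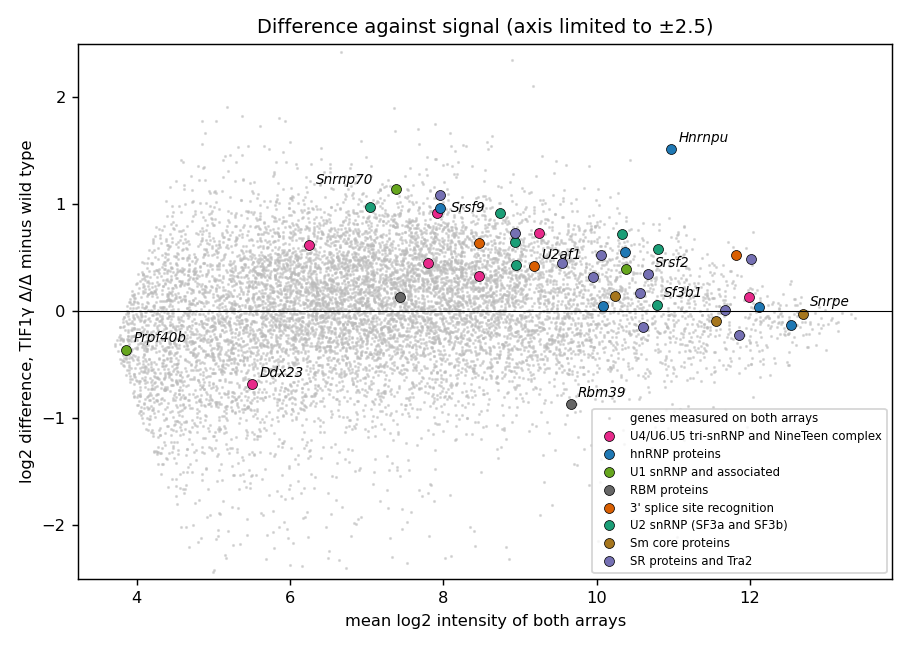
Log2 intensity difference (TIF1γ Δ/Δ minus wild type, y axis limited to ±2.5) against the mean log2 intensity of both arrays (x axis) for genes measured on both arrays (grey) and the 42 splicing factor genes (coloured by class). Most splicing factor genes lie above 0 at medium and high signal, Hnrnpu at 1.52, while Rbm39, Ddx23 and Prpf40b lie below.

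The rest of the splicing pathway was mostly above 0 by small amounts, and the share of genes past a higher fold limit was near that of the array as a whole. Of 83 other splicing genes, 79 had a probe set of their own and 77 were measured, of which 55 were above 0 (50.0% of all measured genes), with a median of 0.20. At 1.5-fold, 10 of the 77 were higher, near the 13.5% of all measured genes, and 0 lower (15.3%). At 2-fold 2 of the 77 were higher, near the 2.53% of all measured genes. These were Hnrnph1, which gave 602 and 1518 (log2 1.36, 1 of 2 probe sets), and Snrnp200, the U5 helicase, which gave 516 and 1117 (log2 1.14, 2 of 2). The lowest differences were those of the small SF3b subunits Sf3b5 (926 and 623, log2 -0.55, 2 of 2 probe sets) and Sf3b6 (3351 and 2285, log2 -0.53, 4 of 4), named after their values were seen. They lay opposite to the 7 larger SF3a and SF3b genes, all above 0. Phf5a, another small SF3b subunit, did not share their direction, at 1013 and 1097 (log2 0.14). Whether the splicing factor genes and the rest of the pathway differ could not be tested with 1 array a group.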

How the data were processed

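Total RNA of sorted KLS cells was measured on 2 Affymetrix arrays. Per the labels' protocols, cRNA was made from 25 ng RNA with a two-cycle labelling assay. The deposited intensity values came from MAS5, per the submitters' processing notes; version and filters were not given in the sources used here. The trimmed mean, leaving out 2% at each end, was 100 on both arrays (100.001 and 100.001). The array number limits the precision.

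Of 45101 probe sets, 64 controls were left out; 34945 had 1 gene symbol, 932 several, the rest none. Symbols were updated by Entrez identifier to RefSeq GRCm38.p6 (34741 matched). The centring shift was -0.024. Values under a floor (the array's median) were raised to it. A probe set under both floors got no difference of its own. Its unraised values did enter the mean of all probe sets of a gene, where only that mean was raised to the floor. The members and lists were chosen with earlier results of these data known. Named by rule were all members, in full those at least 1.5-fold apart, and other splicing genes at least 2-fold apart. The procedure was tested on simulated data. Computation used Python 3.11.15, numpy 2.4.6, pandas 2.3.3, scipy 1.17.1, statsmodels 0.14.6 and matplotlib 3.10.9. Alternatives covered scaling, floor, probe set rule and a pseudocount.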

Additional observations from a re-analysis of the deposited data

How the results depend on the processing

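The median of the splicing factor genes stayed above 0 under all 10 alternatives, from 0.26 to 0.52. It was 0.34 with loess scaling, 0.52 with no floor, 0.28 with the mean over all probe sets and 0.26 with the median over a gene's measured probe sets, an alternative chosen after seeing the data. The count at least 1.5-fold higher was 7 with the mean over all probe sets (array-wide share 10.9%). The count at least 1.5-fold lower was 1 with quantile scaling, with the mean of all probe sets and with a pseudocount of 16. Array-wide shares on that side were 13.3%, 16.5% and 9.71%. The count at least 2-fold higher was 5 at the 40th percentile as floor, 7 with no floor and 1 with the median of probe sets. The matching array-wide shares at 2-fold are not given here. At 1.5-fold, the array-wide shares with no floor were 22.8% up and 23.5% down, against 13.5% and 15.3% in the main setting. They were 14.6% and 17.3% at the 40th percentile, and 11.5% and 12.9% with the median of probe sets. Calls at 1.5-fold thus rose array-wide with no floor, not only among the splicing factor genes. For the U2 snRNP class the median was 0.44 with the mean and also with the median of probe sets, and for SR proteins it was 0.063 and 0.054. For the U1 class it was 0.71 at the 65th percentile as floor, where Prpf40b was no longer measured, and it turned to -0.11 with the mean of all probe sets, as did Snrnp70 (-0.11). That mean of Snrnp70, 9.82 in wild type and 13.1 in TIF1γ Δ/Δ cells, took in probe sets under both floors and was itself raised to the floor of 14.4 in wild type cells, so its sign comes from the floor. The Sm median was 0.32 without probe sets ending in _s_at or _x_at, where Snrpe has none left. The median of other splicing genes was 0.13 at the 65th percentile as floor, 0.28 with no floor and 0.26 without those probe sets. A median counted as moved when it changed by more than the probe set scatter divided by the square root of the number of genes; other causes were not tested. No paired analysis was possible because each group holds 1 array.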

Other observations

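Probe sets shared between a splicing factor gene and other genes entered no comparison. The probe set shared by Snrpd1 and Gm14277 gave 1695 in wild type and 892 in TIF1γ Δ/Δ cells (log2 -0.90), and that shared by Snrpd2 and Gm5848 gave 3196 and 2676 (log2 -0.23). The probe set shared by Snrpa and 2 predicted genes gave 205 and 258 (log2 0.35). The 3 probe sets shared by Hnrnpa1 and its copies gave log2 differences of 0.082, 0.36 and 0.55. To which gene of each set the signal belongs was not tested.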
